A study of Mus musculus with 15 samples.

Results

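Biliary cells sorted from the livers of untreated mice were compared with hepatocytes sorted from untreated mice, by RNA sequencing of 3 libraries per cell type. The comparison used 6 of the 15 libraries of the series and 13905 of the 24493 genes in its table, namely every gene that reached 1 TPM in at least 3 of the 15 libraries. TPM is a relative abundance, scaled to the library's total and adjusted for transcript length. No biliary or hepatocyte value entered that choice other than through the minimum level. At its edge, 304 genes reached 1 TPM in exactly 3 libraries, with a median highest value of 2.14 TPM, and 338 genes in exactly 2, with a median highest value of 1.83 TPM.

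The biliary cells and the hepatocytes carried the same treatment, AAV-TBG-Cre, an adeno-associated virus that expresses Cre recombinase from the hepatocyte promoter TBG, given at 4 weeks of age. Neither group received DDC, the chow additive that the other 9 libraries of the series were exposed to for 4 weeks from 5 weeks of age and that injures bile ducts and hepatocytes. The labels used here give no strain, sex, harvest age of the untreated mice or sorting markers. They also do not say that libraries of 1 group came from separate mice. The p-values use 1 spread per gene within groups, taken over all 15 libraries, the 9 under DDC included. That spread may be technical, and it is not that of the 6 untreated libraries alone. The cells were not grown in culture. Whether Cre had labelled the sorted cells is not stated for the untreated groups.

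Bile ducts are lined by biliary epithelial cells, or cholangiocytes, which modify bile by secreting chloride, bicarbonate and water and by taking up bile acids and glucose across an apical surface that carries microvilli and a primary cilium. Hepatocytes make the plasma proteins, the enzymes of the urea cycle, of drug metabolism and of gluconeogenesis, and the bile acids themselves. Both cell types descend from a common embryonic hepatoblast, in which Notch signalling and the transcription factor Sox9 favour the biliary fate and Hnf4a supports the hepatocyte fate.

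The 4 genes that mark the cells separated the groups in the directions of their labels. Spp1, the gene for the secreted phosphoprotein osteopontin (chr5:104435118-104441050, plus strand, GRCm38), had 9722, 9431 and 10828 scaled TPM in the biliary libraries, against 5.99, 8.39 and 4.26 in the hepatocyte libraries. Krt19, which codes for a keratin of bile duct epithelium (chr11:100140810-100148665, minus strand), had 369, 377 and 581 scaled TPM in biliary libraries and 0, 0.143 and 0.732 in hepatocyte libraries. Epcam, the gene for an epithelial adhesion molecule (chr17:87635979-87651129, plus strand), had 287, 310.4 and 287 scaled TPM in biliary libraries and 0.224, 0.179 and 0.0902 in hepatocyte libraries. The biliary and hepatocyte libraries did not overlap for any of these 3 genes, and biliary library 3 was the highest for Spp1 and Krt19. Hnf4a, the gene for a nuclear receptor of hepatocyte identity (chr2:163506808-163572910, plus strand), had 101, 80.8 and 74.2 scaled TPM in biliary libraries and 376, 369 and 341 in hepatocyte libraries. All 3 biliary libraries were below all 3 hepatocyte libraries, yet none was near 0. The log2 differences were 10.47 for Spp1 (adjusted p = 1.48e-10), 8.43 for Krt19 (adjusted p = 2.4e-11), 7.99 for Epcam (adjusted p = 2.87e-13) and -2.08 for Hnf4a (adjusted p = 1.98e-06).

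Levels here are scaled TPM, that is, deposited TPM divided by 1 scale factor per library, and are given as mean ± SD (n = 3 libraries per group), or per library where a library was listed at 0. Differences are biliary cells minus hepatocytes in the mean of log2(scaled TPM + 1). On this scale the pseudocount of 1 shrinks the changes of low genes. A gene is called higher or lower in biliary cells where the limma adjusted p was under 0.05 and the difference at least 1 in size. Scale factors were 1.315, 1.457 and 1.413 in the biliary libraries and 0.5505, 0.6 and 0.5782 in the hepatocyte libraries. In TPM as deposited all log2 differences are shifted up by 1.14 at the median, so every direction below is relative to the median gene after scaling.

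Of the 13905 genes tested, 5185 were called, or 37.3%, of which 3010 were higher in biliary cells (21.6%) and 2175 lower (15.6%). The 3 biliary and 3 hepatocyte libraries did not overlap for 10782 genes, or 77.5%. Without the scaling the split was 7350 higher (52.9%) and 470 lower (3.38%). The sizes were unequal in the 2 directions. A difference of at least 3 was called for 740 genes higher in biliary cells and for 9 genes lower. The higher genes had a median of 10.5 scaled TPM in biliary cells and 0.697 in hepatocytes, and 348 of them were listed at 0 in every hepatocyte library. The lower genes had a median of 30.1 scaled TPM in biliary cells and 94.8 in hepatocytes, and 2079 of the 2175 still averaged at least 1 scaled TPM in biliary cells. Where every hepatocyte library was listed at 0, the size of a fitted difference depends on the pseudocount and none is printed. The number of genes at 1 TPM or more ran from 12850 to 13097 in the biliary libraries and from 10231 to 10432 in the hepatocyte libraries.

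**Figure D1:**
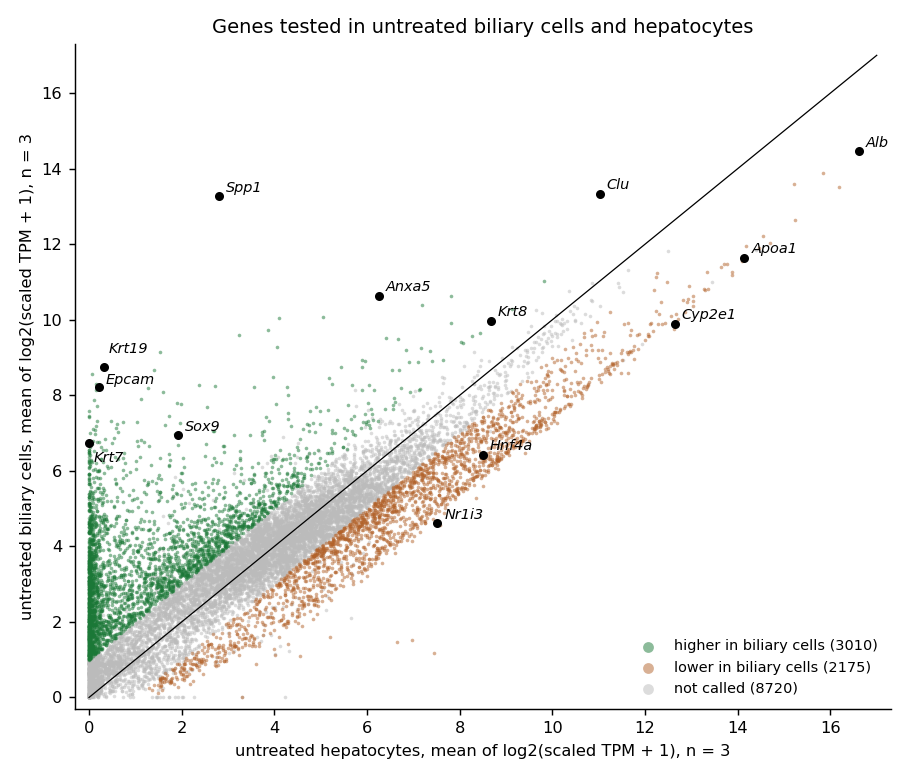
Mean of log2(scaled TPM + 1) over 3 libraries in untreated biliary cells (vertical axis) against untreated hepatocytes (horizontal axis) for each of the 13905 genes tested, coloured by call, with the line of equal level. The 3010 genes called higher spread up the left edge, while most of the 2175 called lower run in a band below the line and not along the bottom edge.

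The genes with the largest differences in biliary cells included several of the epithelial surface. After Spp1, the largest were Scara3, which codes for a scavenger receptor-like protein, with 388, 385 and 354 scaled TPM in biliary libraries and 0.0967, 0.0514 and 0 in hepatocyte libraries, and Krt19. Anxa13, the gene for an annexin of epithelial membranes, had 284, 304 and 354 scaled TPM in biliary libraries and 0.103, 0 and 0.248 in hepatocyte libraries. Cd24a, which codes for a small surface glycoprotein, averaged 279.7 ± 6.11 in biliary cells and 0.1298, 0.207 and 0 in the 3 hepatocyte libraries (log2 difference 7.98, SE 0.17), and Tspan8, the gene for a tetraspanin, 238 ± 51.3 in biliary cells and 0, 0.191 and 0.0723 in the 3 hepatocyte libraries (log2 difference 7.76, SE 0.30). Mfge8, which codes for a secreted protein that bridges apoptotic cells to phagocytes, averaged 409 ± 45.2 in biliary cells and 1.67 ± 0.44996 in hepatocytes (log2 difference 7.27, SE 0.18). The rest of the 15 largest were S100a11, Fxyd3, Bicc1, Ankrd1, Cldn7, Ctgf and Pamr1, beside Epcam. Spp1 alone took 1.28% to 1.53% of all TPM in the biliary libraries, against at most 0.000503% in the hepatocyte libraries.

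The largest differences towards hepatocytes were smaller and fell mainly on genes whose reads are hard to assign. Among the 15 largest were short RNA genes, several major urinary protein genes of a near-identical multigene family (Mup8, Mup12, Mup16 and Mup17) and Cyp2d13, a member of a P450 cluster, and their values are uncertain for that reason. Among single-copy genes with a known product, Nr1i3, which codes for the xenobiotic receptor CAR (chr1:171213970-171220701, plus strand), differed most. It had 28.7, 23.1 and 19.2 scaled TPM in the biliary libraries, against 225, 163 and 165 in the hepatocyte libraries (log2 difference -2.91, SE 0.41, adjusted p = 3.62e-05). No biliary library overlapped a hepatocyte one. The deposited biliary mean was 31.1% of the hepatocyte mean.

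Hepatocyte transcripts were present in all 3 biliary libraries. Of the genes in the hepatocyte lists described below, 236 reached at least 100 TPM in hepatocytes as deposited. Biliary cells held a median of 44.2% of the hepatocyte level, with quartiles of 41.6% and 54.0%. The lowest of the 236 was at 31.1%, or 10.5% without biliary library 3, and at 12.6%, 8.33% and 19.3% in biliary libraries 1, 2 and 3 taken singly. Of the 236 genes, 158 lay between 25% and 50%, 67 between 50% and 100%, and 11 at 100% or above. The median was 50.9%, 42.1% and 43.1% in biliary libraries 1, 2 and 3, and in library 1 more of the genes lay between 50% and 100% (119) than between 25% and 50% (104). By list the median ran from 38.6% for pericentral genes to 55.9% for fatty acid oxidation and 71.8% for sterol and fatty acid synthesis, with the other lists between 38.7% and 50.6%. In scaled TPM the same median was 18.3%. Among all 1082 genes of at least 100 TPM in hepatocytes, the median was 75.5%, and 1 gene, Mir7085, a short RNA, lay below 25%.

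Albumin mRNA was the most abundant of these. Alb (chr5:90460897-90476602, plus strand) had 26061, 20527 and 21190.0 scaled TPM in the biliary libraries, against 104389, 92623 and 105574 in the hepatocyte libraries (log2 difference -2.16, SE 0.60, adjusted p = 0.00627), and it was no longer called with no filter (-2.16), in TPM as deposited (-0.89) or under quantile normalization (0.00). As deposited this was 3.43%, 2.99% and 2.99% of all TPM in biliary libraries 1, 2 and 3, against 5.75%, 5.56% and 6.1% in the hepatocyte libraries. Quantile normalization gives the same value to a gene that holds the same rank in every library. For the most abundant genes it can therefore hide a difference in level. Together the genes called lower took 40.5% to 47.2% of all TPM in the biliary libraries and 76.4% to 77.9% in the hepatocyte libraries. In a bulk library, fewer cells of a type and less RNA per cell cannot be told apart, and RNA from hepatocytes cannot be told apart from expression in biliary cells. The part of these transcripts in the results on hepatocyte genes was not tested.

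**Figure D2:**
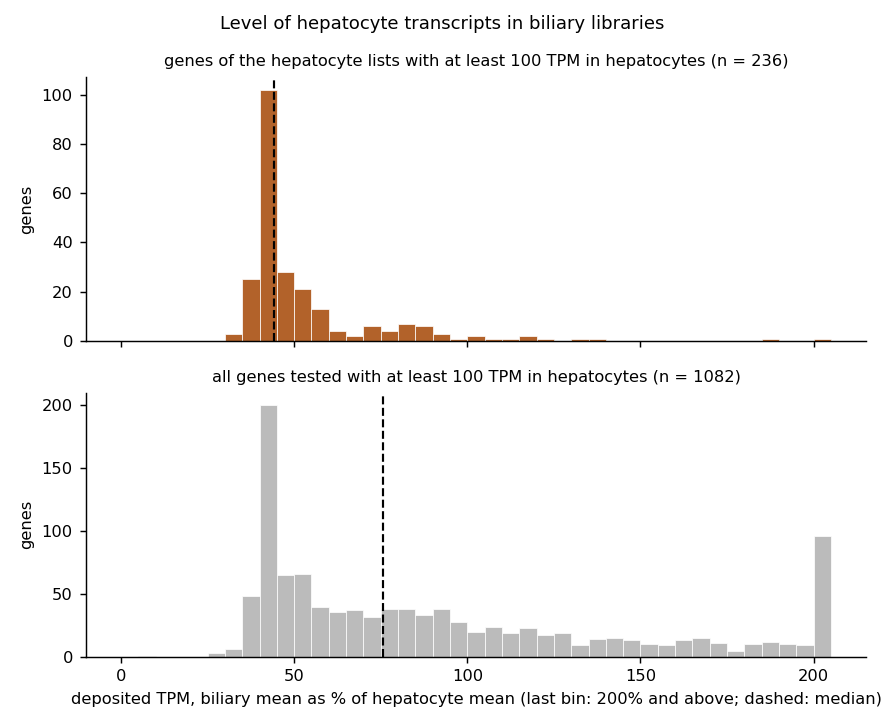
Number of genes (vertical axis) by the mean deposited TPM in biliary cells as a percentage of that in hepatocytes (horizontal axis, 5-point bins, all values of 200% and above in the last bin), for 236 genes of the hepatocyte lists (top) and for all 1082 genes of at least 100 TPM in hepatocytes (bottom). The dashed lines are the medians, 44.2% and 75.5%. The hepatocyte genes pile up between 35% and 60%, with none below 31.1%.

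Markers of other liver cells were low in both groups, with exceptions. Of 55 tested genes on 7 such lists, 20 were higher and 1 lower, beside 21.6% and 15.6% of all genes. Under quantile normalization 11 were higher and 5 lower, and without scaling 31 and 1, the latter beside 52.9% and 3.38% of all genes. Summed over the macrophage list, where 2 of 13 tested members were higher, or 1 higher and 1 lower without biliary library 3, the level was 107 to 152 scaled TPM in the biliary libraries and 50.1 to 124 in the hepatocyte libraries. Csf1r, the macrophage growth factor receptor gene, was at 43.2 ± 8.01 in biliary cells and 1.92 ± 0.438 in hepatocytes, and Clec4f, a Kupffer cell receptor gene, was not called at 9.72 ± 2.48 in biliary cells and 5.27 ± 2.05 in hepatocytes. Mpeg1, a perforin-like gene of macrophages, lay the other way and was not called either, at 21.4 ± 7.39 in biliary cells and 46.99 ± 29.000 in hepatocytes, though it was called lower without biliary library 3 (-1.25) or hepatocyte libraries 1 (-1.27) or 2 (-1.18), and its sign turned in TPM as deposited (0.24). Without scaling 10 of the 13 macrophage genes were higher, beside 52.9% of all genes. The endothelial list (1 of 11 higher) summed to 22.9 to 34.9 scaled TPM in biliary and 12.3 to 15.5 in hepatocyte libraries. Lymphocyte genes summed to 1.68 to 3.296 scaled TPM in biliary and 2.14 to 2.98 in hepatocyte libraries, with 0 of 1 tested member called. Klrb1c, a natural killer cell gene, was listed at 0 in all 6 libraries.

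The list of stellate cells and portal fibroblasts (5 of 12 higher, 2 under quantile normalization and 3 without biliary library 3) summed to 134 to 145 scaled TPM in the biliary libraries, against 1.54 to 5.71 in the hepatocyte libraries. Most of it was Rgs5, a pericyte gene, at 108 ± 2.38 in biliary cells and 0.1602 ± 0.154 in hepatocytes, while the reelin gene Reln, of stellate cells, averaged 13.6 ± 3.62 in biliary cells and 1.76 ± 0.844 in hepatocytes. The neutrophil and dendritic cell list (2 of 5 higher) summed to 53.9 to 118 scaled TPM in biliary and 5.69 to 10.4 in hepatocyte libraries, mostly from the MHC class II genes H2-Ab1 (58.95 ± 23.3 in biliary cells and 2.08 ± 1.43 in hepatocytes) and H2-Aa (36.1 ± 15.9 in biliary cells and 4.15 ± 1.43 in hepatocytes), while the neutrophil genes Mpo and Retnlg were listed at 0 in all 6. Of 12 mesothelial and ciliated cell markers 8 passed the minimum level, and those 8 were higher, or 4 under quantile normalization. None could pass through an untreated hepatocyte library, where even the sum of the list was below 1. The minimum level thus tilted this count, which is no evidence of a direction. The list summed to 97.7 to 117 scaled TPM in biliary and 0.415 to 0.842 in hepatocyte libraries. It was led by Gpm6a, a membrane glycoprotein gene (54.5 ± 6.07 in biliary cells and 0.488 ± 0.199 in hepatocytes), and Foxj1, the regulator of motile cilia (34.96 ± 4.31 in biliary cells and a listed 0 in every hepatocyte library), while the mesothelin gene Msln was at 5.81 ± 6.56 in biliary cells and a listed 0 in every hepatocyte library. Erythroid and platelet genes (2 higher and 1 lower of 5, or 1 and 3 under quantile normalization) summed to 24.2 to 39.04 scaled TPM in biliary and 116 to 140.3 in hepatocyte libraries. Their largest member was Alas2, a heme synthesis gene (21.4 ± 5.99 in biliary cells and 121 ± 15.1 in hepatocytes), while the red cell gene Slc4a1 was listed at 0 in all 6 libraries. The part of these cells in the results below was not tested.

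Across 12 lists of ductal functions with 242 distinct tested genes, 164 were higher in biliary cells and 20 lower, beside 21.6% and 15.6% of all genes. The median difference was 1.76, beside 0.12 over all genes tested. Without scaling 190 were higher and 2 lower, beside 52.9% and 3.38% of all genes. Of the lower members named below, Tbx3, Kcnn2, Aqp11, Scnn1a, Cdh2, Nectin1, Sdc1 and Col18a1 were not called without scaling. Members listed at 0 in every hepatocyte library passed the minimum level only through other libraries and could not be lower. That tilts the counts of these lists, and of the signalling lists below, towards higher. The list of bile duct surface and marker genes was the most one-sided. Of its 22 members, all tested, 20 were higher and 0 lower, with a median of 6.13. Among the 22, 7 were listed at 0 in every hepatocyte library. Muc1, the gene for a membrane mucin, averaged 126 ± 18.8 in biliary cells and 0.0985 ± 0.0911 in hepatocytes (log2 difference 6.85, SE 0.33). Anxa5, which codes for a phospholipid-binding annexin, was at 1584 ± 94.5 in biliary cells and 75.9 ± 5.89 in hepatocytes (log2 difference 4.37, SE 0.26). Cldn4, a claudin gene of tight junctions, had 45.8, 40.5 and 83.4 scaled TPM in biliary libraries and a listed 0 in each hepatocyte library. Each of these genes was higher in every biliary library than in any hepatocyte library. The other 2 members were not called, and both stayed near or below 1 scaled TPM.

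Keratins split by type. Krt7 (chr15:101411043-101430313, plus strand), the partner of Krt19 in duct epithelium, had 84.9, 101 and 135 scaled TPM in the biliary libraries, against a listed 0 in every hepatocyte library (adjusted p = 9.24e-11). Krt23 averaged 129 ± 7.59 in biliary cells and 0.563 ± 0.345 in hepatocytes (log2 difference 6.40, SE 0.53). Krt8 and Krt18, the keratin pair of all simple epithelia including hepatocytes, were abundant in both groups and higher in biliary cells. Krt8 had 855, 957 and 1248 scaled TPM in the biliary libraries, against 363, 366 and 509 in the hepatocyte libraries (log2 difference 1.30, SE 0.28, adjusted p = 0.0011), and Krt18 averaged 774 ± 153 in biliary cells and 312 ± 85.9 in hepatocytes (log2 difference 1.32, SE 0.25). Their biliary libraries were above every hepatocyte library, but by a small margin beside that of Krt19 and Krt7. In all, 6 of 7 keratin genes were higher and 0 lower, and for all 7 the highest biliary value was in library 3. Among the 7, 3 were listed at 0 in every hepatocyte library and could not be lower.

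Transcription factors of the duct were higher in biliary cells as a list, with 23 of 29 tested members called higher, 1 lower and a median of 3.03. Sox9 (chr11:112782224-112787760, plus strand), which marks the ductal plate of the embryo, had 119, 112 and 135 scaled TPM in the biliary libraries, against 2.997, 2.89 and 2.52 in the hepatocyte libraries (log2 difference 5.02, SE 0.22, adjusted p = 1.12e-09). It was near 3 scaled TPM in hepatocytes and above 0 in every hepatocyte library. Sox4, a SOX factor that acts with Sox9 in the duct, averaged 104 ± 6.46 in biliary cells and 0.0752, 0.06002 and 0 in the 3 hepatocyte libraries and the epithelial ETS factor gene Ehf 77.2 ± 4.65 in biliary cells and 0, 0.059005 and 0.0198 in the 3 hepatocyte libraries. Glis3, in humans mutated in a syndrome with kidney cysts and liver fibrosis, averaged 40.1 ± 1.37 in biliary cells and 0.0211 ± 0.00877 in hepatocytes (log2 difference 5.33, SE 0.18), and its relative Glis2 47.2 ± 7.36 in biliary cells and 0.0302, 0.0722 and 0 in the 3 hepatocyte libraries (log2 difference 5.53, SE 0.23). Hhex, a homeobox gene needed in the early liver bud, was expressed in both groups at 242 ± 5.44 in biliary cells and 95.3 ± 12.9 in hepatocytes (log2 difference 1.34, SE 0.14). Tbx3, a T-box gene of the hepatoblast, was the 1 member called lower, at 1.34 ± 0.411 in biliary cells and 7.71 ± 1.305 in hepatocytes (log2 difference -1.90, SE 0.18).

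Genes of ion, water and bicarbonate secretion included several channels that were high in biliary cells and listed at 0 in hepatocytes. Of 31 tested members, 18 were higher and 3 lower, with a median of 1.37, or 15 higher and 6 lower under quantile normalization. Among the 36 members listed, tested or not, 13 were at 0 in every hepatocyte library. Such members could pass the minimum level only through other libraries, so the minimum level tilted this count. Ano1, the calcium-activated chloride channel TMEM16A, had 58.05, 53.6 and 63.99 scaled TPM in biliary libraries and a listed 0 in each hepatocyte library. Fxyd3, which codes for a regulator of the sodium pump, had 206, 147 and 229 scaled TPM in biliary libraries and a listed 0 in each hepatocyte library, and the potassium channel subunit gene Kcne3 85.8, 87.6 and 96.7 scaled TPM in biliary libraries and a listed 0 in each hepatocyte library. All 3 genes were listed at 0 in every hepatocyte library. Sctr, the receptor for secretin, the hormone that drives ductal bicarbonate output, had 9.55, 10.8 and 9.52 scaled TPM in biliary libraries and a listed 0 in each hepatocyte library (adjusted p = 1.94e-07). Atp1b1, the beta subunit of the sodium pump, was expressed in both groups at 486 ± 16.8 in biliary cells and 58.3 ± 5.28 in hepatocytes (log2 difference 3.04, SE 0.19). The 3 lower members were Kcnn2, a calcium-activated potassium channel gene (5.71 ± 1.03 in biliary cells and 28.7 ± 2.35 in hepatocytes), Aqp11, a water channel gene (8.499 ± 1.72 in biliary cells and 36.9 ± 6.32 in hepatocytes), and Scnn1a, a subunit of the epithelial sodium channel (5.44 ± 1.61 in biliary cells and 16.5 ± 2.53 in hepatocytes, log2 difference -1.46, SE 0.48). Scnn1a was no longer called without biliary library 1 (-1.33) or hepatocyte library 1 (-1.35). Slc4a2, the chloride-bicarbonate exchanger AE2, was not called at 40.1 ± 2.55 in biliary cells and 23.6 ± 1.69 in hepatocytes.

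Uptake transporters were higher for 6 of 13 tested members and lower for 2, beside 21.6% and 15.6% of all genes. In TPM as deposited 7 were higher and 0 lower, beside 52.9% and 3.38% of all genes. Slc5a1, the sodium-glucose cotransporter SGLT1 through which ducts recover glucose from bile, averaged 127 ± 10.4 in biliary cells and 0, 0.0661 and 0 in the 3 hepatocyte libraries (log2 difference 6.97, SE 0.27). Slco3a1, an organic anion transporter gene, averaged 55.2 ± 4.06 in biliary cells and 0.149 ± 0.0276 in hepatocytes (log2 difference 5.61, SE 0.25), and Abcb1a, a P-glycoprotein gene, 50.9 ± 2.41 in biliary cells and 1.46 ± 0.611 in hepatocytes (log2 difference 4.43, SE 0.35). The apical bile acid transporter gene Slc10a2 was not called and had 8.15, 10.03 and 10.1 scaled TPM in biliary libraries and 17.2, 22.8 and 18.5 in hepatocyte libraries. In TPM as deposited the sign of its difference turned (-0.97 scaled, 0.21 deposited).

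Cell contacts differed gene by gene rather than as a block. Claudins, which set the tightness and ion selectivity of tight junctions, fell on both sides. Cldn7 had 159.9, 159 and 191 scaled TPM in biliary libraries and a listed 0 in each hepatocyte library, Cldn6 79.1, 88.9 and 88.6 scaled TPM in biliary libraries and a listed 0 in each hepatocyte library, and Cldn8 averaged 49.2 ± 5.84 in biliary cells and 0, 0 and 0.0388 in the 3 hepatocyte libraries (log2 difference 5.63, SE 0.16). Cldn3 was abundant in both groups, at 288 ± 23.4 in biliary cells and 142 ± 10.4 in hepatocytes (log2 difference 1.02, SE 0.14), close to the minimum of 1, and it was no longer called without biliary library 1, biliary library 3 (0.97) or hepatocyte library 2 (0.96). Cldn1 went the other way, with 23.8, 14.7 and 15.5 scaled TPM in the biliary libraries, against 121, 100.1 and 102 in the hepatocyte libraries (log2 difference -2.54, SE 0.28, adjusted p = 4.81e-06), and so did Cldn14 at 3.58 ± 0.655 in biliary cells and 20.3 ± 5.04 in hepatocytes (log2 difference -2.20, SE 0.29). Of the 27 tested genes of tight junctions and polarity, 18 were higher and 3 lower, with a median of 1.40.

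The classical cadherins also split. Cdh1, the gene for E-cadherin, had 356, 341 and 356 scaled TPM in the biliary libraries, against 61.1, 23.9 and 30.3 in the hepatocyte libraries (log2 difference 3.27, SE 0.25, adjusted p = 1.57e-07), with every biliary library above every hepatocyte library. Cdh2, the gene for N-cadherin, had 19.7, 20.2 and 19.9 scaled TPM in biliary libraries and 66.4, 67.9 and 68.9 in hepatocyte libraries (log2 difference -1.71, SE 0.09). Cdh6 and Cdh3, further cadherin genes of epithelia, averaged 22.8 ± 3.61 in biliary cells and 0.392 ± 0.03201 in hepatocytes (log2 difference 4.09, SE 0.20) and 17.7 ± 4.35 in biliary cells and 0.0537, 0.0643 and 0 in the 3 hepatocyte libraries (log2 difference 4.15, SE 0.18). The nectin genes divided as well, with Nectin4 at 9.198 ± 0.706 in biliary cells and 0, 0 and 0.0412 in the 3 hepatocyte libraries and Nectin1 at 11.4 ± 2.04 in biliary cells and 40.5 ± 5.01 in hepatocytes (log2 difference -1.74, SE 0.17). Among desmosome and plaque genes, Dsg2 averaged 309 ± 10.2 in biliary cells and 65.9 ± 11.3 in hepatocytes (log2 difference 2.22, SE 0.16) and Ppl, the periplakin gene, 43.2 ± 5.46 in biliary cells and 3.59 ± 1.67 in hepatocytes (log2 difference 3.33, SE 0.24). In the adherens junction and desmosome list, 14 of 24 members were higher and 4 lower.

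Of 20 integrins and matrix receptors, 11 were higher, 3 lower and 6 not called. The summed level of the list overlapped between the groups, at 1189.7 to 1370.4 scaled TPM in the biliary libraries and 1266 to 1359 in the hepatocyte libraries. Bcam, a laminin receptor gene, averaged 161 ± 34.5 in biliary cells and 0.393 ± 0.0814 in hepatocytes (log2 difference 6.85, SE 0.22), and Ddr1, a collagen receptor kinase gene, 79.99 ± 21.5 in biliary cells and 0.203 ± 0.107 in hepatocytes (log2 difference 6.04, SE 0.25). Itgb4, the integrin subunit of hemidesmosomes, averaged 26.7 ± 2.95 in biliary cells and 0.0248 ± 0.0155 in hepatocytes (log2 difference 4.75, SE 0.15), Itga3 84.8 ± 20.2 in biliary cells and 4.71 ± 0.352 in hepatocytes (log2 difference 3.88, SE 0.24), and Itgb8, a subunit that activates latent TGF-beta, had 31.9, 34.1 and 35.1 scaled TPM in biliary libraries and a listed 0 in each hepatocyte library. Itgb1, the beta subunit common to many integrins, was not called at 169 ± 6.38 in biliary cells and 118 ± 11.1 in hepatocytes. Sdc1, a heparan sulfate proteoglycan gene, was lower at 82.8 ± 12.2 in biliary cells and 258 ± 25.8 in hepatocytes (log2 difference -1.64, SE 0.16).

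Several laminin genes of epithelial basement membranes were near 0 in hepatocytes. Lamb2 averaged 75.8 ± 2.44 in biliary cells and 0.0757, 0 and 0.0304 in the 3 hepatocyte libraries (log2 difference 6.21, SE 0.31) and Lama5 32.3 ± 7.82 in biliary cells and 0.0597 ± 0.0185 in hepatocytes (log2 difference 4.95, SE 0.29). Hspg2, the perlecan gene, averaged 46.1 ± 10.1 in biliary cells and 0.599 ± 0.205 in hepatocytes (log2 difference 4.87, SE 0.27), and Agrn, the agrin gene, 173 ± 29.6 in biliary cells and 13.2 ± 0.802 in hepatocytes (log2 difference 3.60, SE 0.22). Col18a1, the precursor of endostatin, was lower in biliary cells, with 155, 114 and 157 scaled TPM in the biliary libraries, against 476, 456 and 489 in the hepatocyte libraries (log2 difference -1.75, SE 0.20). Of 22 tested members, 17 were higher and 2 lower, with a median of 2.46.

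Secreted mucins were scarce. Of 16 mucin and trefoil genes listed, 5 passed the minimum level, of which 3 were higher and 1 lower. Tff2, a trefoil peptide gene, averaged 40.1 ± 16.7 in biliary cells and 0.632, 0 and 0 in the 3 hepatocyte libraries (log2 difference 5.05, SE 0.48), and Fcgbp, a mucus component, 3.02 ± 0.761 in biliary cells and 0.0265, 0.07395 and 0 in the 3 hepatocyte libraries (log2 difference 1.94, SE 0.20). The gel-forming mucin genes Muc5ac, Muc5b and Muc6 were listed at 0 in all 6 libraries.

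Apical actin and microvillus genes were higher for 17 of 23 tested members and lower for 0. Tmsb4x, an actin-sequestering peptide gene, had 975, 1008 and 1184 scaled TPM in the biliary libraries, against 17.4, 15.4 and 15.3 in the hepatocyte libraries (log2 difference 5.95, SE 0.22), and Tmsb10, its relative, averaged 769 ± 82.1 in biliary cells and 8.48 ± 0.889 in hepatocytes (log2 difference 6.34, SE 0.35). S100a11, a calcium-binding protein gene, averaged 570.1 ± 58.6 in biliary cells and 2.099 ± 1.26 in hepatocytes (log2 difference 7.62, SE 0.34), and Anxa2, an annexin gene, 241 ± 35.3 in biliary cells and 1.302 ± 0.937 in hepatocytes (log2 difference 6.79, SE 0.45). Ezr, the gene for ezrin, which links microvilli to actin, averaged 157 ± 23.6 in biliary cells and 1.06 ± 0.285 in hepatocytes (log2 difference 6.26, SE 0.21), and the cytoplasmic actin gene Actg1 1602 ± 168 in biliary cells and 225 ± 33.6 in hepatocytes (log2 difference 2.83, SE 0.16).

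Genes of the primary cilium and of polycystic disease were higher in biliary cells, 23 of 31, with 1 lower and a median of 1.48. Under quantile normalization 11 were higher and 0 lower. Bicc1, an RNA-binding regulator of cyst formation, averaged 209 ± 11.5 in biliary cells and 0.123 ± 0.0169 in hepatocytes (log2 difference 7.55, SE 0.22), and Dcdc2a, mutated in human sclerosing cholangitis of the newborn, 114 ± 5.87 in biliary cells and 0.274 ± 0.0468 in hepatocytes (log2 difference 6.49, SE 0.15). Pkhd1, the fibrocystin gene, had 82.2, 86.5 and 71.8 scaled TPM in the biliary libraries, against 1.42, 2.18 and 2.16 in the hepatocyte libraries (log2 difference 4.80, SE 0.27, adjusted p = 1e-08), and Pkd2, the polycystin-2 channel gene, 63.6, 73.8 and 74.8 scaled TPM in biliary libraries and 8.05, 9.47 and 6.83 in hepatocyte libraries (log2 difference 2.98, SE 0.14). Of the intraflagellar transport genes, Ift57 averaged 25.3 ± 2.47 in biliary cells and 0.293 ± 0.0737 in hepatocytes (log2 difference 4.35, SE 0.14), while Ift172 was not called at 17.2 ± 1.09 in biliary cells and 8.44 ± 0.714 in hepatocytes. Pkd2 and Ift172 were both well above 0 in hepatocytes.

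**Figure D3:**
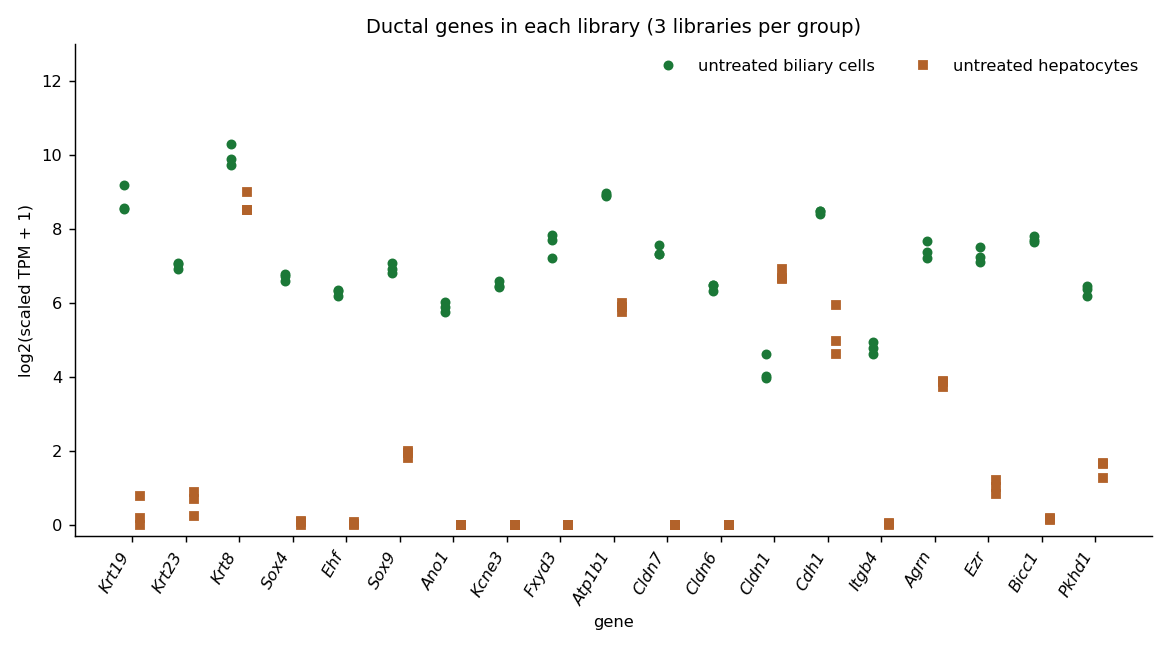
Level of 19 ductal genes, as log2(scaled TPM + 1), in each of 3 libraries of untreated biliary cells (circles) and 3 of untreated hepatocytes (squares). Biliary libraries lie above hepatocyte libraries for every gene shown except Cldn1, where the order is the reverse, and 5 of the genes are listed at 0 in every hepatocyte library.

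Across 6 lists of signalling genes with 162 distinct tested genes, 83 were higher in biliary cells and 19 lower, with a median of 1.08. Over all genes 21.6% were higher and 15.6% lower. Without scaling 107 were higher and 7 lower, beside 52.9% and 3.38% of all genes, and under quantile normalization 67 and 25. Of the lower members named below, Nt5e, Egfr and Hamp were not called in TPM as deposited. Among Notch pathway genes, a ligand, a receptor and targets were higher in biliary cells. Jag1, the ligand whose loss causes the duct paucity of human Alagille syndrome, averaged 53.03 ± 5.43 in biliary cells and 1.27 ± 0.106 in hepatocytes (log2 difference 4.57, SE 0.16). Hes1, a direct target, had 193, 165 and 323 scaled TPM in the biliary libraries, against 3.47, 3.04 and 2.52 in the hepatocyte libraries (log2 difference 5.78, SE 0.42, adjusted p = 1.15e-07). Of the receptors, Notch2 averaged 49.9 ± 1.51 in biliary cells and 14.3 ± 2.63 in hepatocytes (log2 difference 1.75, SE 0.16) and Notch1 was not called at 8.496 ± 1.54 in biliary cells and 4.02 ± 0.559 in hepatocytes. Of 13 tested members 7 were higher and 0 lower. Hes5, another target, was listed at 0 in all 6 libraries.

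YAP/TAZ targets, genes activated through TEAD factors when the Hippo pathway is off, were higher in biliary cells for 18 of 25 tested members, with 1 lower and a median of 2.99. Ankrd1, an ankyrin repeat protein gene (chr19:36111961-36120099, minus strand), had 114, 178 and 268 scaled TPM in the biliary libraries, against a listed 0 in every hepatocyte library (adjusted p = 1.22e-10). Ctgf, a matricellular growth factor gene, had 139, 165 and 176 scaled TPM in biliary libraries and 0.142, 0.188 and 0.03798 in hepatocyte libraries (log2 difference 7.16, SE 0.24). Cyr61, its relative, averaged 1091 ± 139 in biliary cells and 32.5 ± 4.64 in hepatocytes (log2 difference 5.03, SE 0.25). All 3 were separate between the groups, and Ankrd1 spread widely among the biliary libraries. Amotl1, a scaffold that binds YAP, averaged 26.9 ± 1.52 in biliary cells and 0.0421 ± 0.0213 in hepatocytes (log2 difference 4.74, SE 0.14), and F3, the gene for tissue factor, 48.9 ± 10.7 in biliary cells and 1.44 ± 0.577 in hepatocytes (log2 difference 4.36, SE 0.36). Nt5e, the ecto-5′-nucleotidase gene CD73, was the 1 lower member at 4.57 ± 0.919 in biliary cells and 25.2 ± 12.6 in hepatocytes (log2 difference -2.15, SE 0.40).

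Growth factor receptors were higher in biliary cells or not called, with Egfr the 1 lower member. Fgfr3 averaged 299 ± 23.2 in biliary cells and 10.9 ± 2.09 in hepatocytes (log2 difference 4.67, SE 0.21) and Fgfr1 42.6 ± 8.67 in biliary cells and 1.397 ± 0.894 in hepatocytes (log2 difference 4.25, SE 0.27). Erbb2, the co-receptor of the EGF receptor family, averaged 14.9 ± 1.09 in biliary cells and 0, 0.0171 and 0 in the 3 hepatocyte libraries (log2 difference 3.98, SE 0.17), while Egfr itself was lower, with 85.6, 91.96 and 50.7 scaled TPM in the biliary libraries, against 317, 531 and 268 in the hepatocyte libraries (log2 difference -2.26, SE 0.32, adjusted p = 3.52e-05). Met, the receptor for hepatocyte growth factor, was not called at 35.1 ± 1.15 in biliary cells and 33.7 ± 3.13 in hepatocytes, and Fgfr4, the receptor for the intestinal hormone that limits bile acid synthesis, was not called at 56.6 ± 1.15 in biliary cells and 30.2 ± 0.447 in hepatocytes. Of 25 tested kinases, 10 were higher and 1 lower, beside 21.6% and 15.6% of all genes. In TPM as deposited 15 were higher and 0 lower, beside 52.9% and 3.38% of all genes. Among secreted ligands 19 of 47 were higher and 11 lower, or 13 higher and 15 lower under quantile normalization, where the list's median turned negative (-0.21, beside 0.35).

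Biliary ligands included Tgfb3 at 20.98 ± 4.72 in biliary cells and 0.0324, 0 and 0 in the 3 hepatocyte libraries (log2 difference 4.42, SE 0.17), Wnt4 at 24.4 ± 4.798 in biliary cells and 0.231 ± 0.0272 in hepatocytes (log2 difference 4.35, SE 0.26), the BMP gene Bmp6 at 23.04 ± 7.43 in biliary cells and 0.454 ± 0.149 in hepatocytes (log2 difference 4.01, SE 0.32) and Cxcl16, a membrane-bound chemokine gene, at 37.4 ± 18.6 in biliary cells and 1.17 ± 0.157 in hepatocytes (log2 difference 4.04, SE 0.40). Hbegf, an EGF receptor ligand, had 31.5, 34.4 and 86.2 scaled TPM in the biliary libraries, against 0.239, 0.229 and 0.231 in the hepatocyte libraries (log2 difference 5.24, SE 0.45), and biliary library 3 stood above the others. Hepatocyte ligands included Hamp, the iron hormone hepcidin, at 541 ± 263 in biliary cells and 3145 ± 1402 in hepatocytes (log2 difference -2.56, SE 0.66), and Lect2, a chemotactic factor of hepatocytes, at 58.4 ± 8.04 in biliary cells and 373 ± 50.4 in hepatocytes (log2 difference -2.66, SE 0.25).

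Receptors coupled to G proteins fell on both sides. Besides Sctr, F2rl1, the protease receptor PAR2, averaged 33.1 ± 7.04 in biliary cells and 0, 0.0324 and 0.0326 in the 3 hepatocyte libraries (log2 difference 5.04, SE 0.23), and Adgrg1, an adhesion receptor gene, 73.9 ± 10.2 in biliary cells and 0.771 ± 0.617 in hepatocytes (log2 difference 5.45, SE 0.22). The glucagon receptor gene Gcgr averaged 48.5 ± 9.22 in biliary cells and 293 ± 35.3 in hepatocytes (log2 difference -2.58, SE 0.28), the vasopressin receptor gene Avpr1a 8.91 ± 1.38 in biliary cells and 58.7 ± 4.45 in hepatocytes (log2 difference -2.60, SE 0.20) and the alpha-1B adrenergic receptor gene Adra1b 11.7 ± 1.595 in biliary cells and 71.1 ± 6.28 in hepatocytes (log2 difference -2.51, SE 0.28). Of 28 tested receptors, 11 were higher and 6 lower, or 7 and 7 under quantile normalization, where the median was -0.05, beside 0.61. Gpbar1, the bile acid receptor TGR5 of cholangiocytes, was listed at 0 in all 6 libraries.

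Immediate early genes, which cells induce within minutes of a stimulus, tissue dissociation among them, were higher in biliary cells for 19 of 26 members, with 0 lower and a median of 1.90. Fosb, an AP-1 subunit gene, had 53.1, 66.7 and 191 scaled TPM in the biliary libraries, against 1.11, 0.288 and 0.788 in the hepatocyte libraries (log2 difference 5.71, SE 0.46, adjusted p = 2.76e-07). Atf3, a stress-induced factor gene, had 155, 273 and 644 scaled TPM in biliary libraries and 5.12, 4.79 and 7.102 in hepatocyte libraries (log2 difference 5.52, SE 0.42). Ier3, an early response gene, averaged 101 ± 51.05 in biliary cells and 0.2901 ± 0.193 in hepatocytes (log2 difference 6.20, SE 0.31), and Nr4a1, an orphan nuclear receptor gene, 127 ± 44.99 in biliary cells and 7.88 ± 2.34 in hepatocytes (log2 difference 3.82, SE 0.28). The biliary libraries were unlike one another: library 3 was the highest for 24 of the 26 genes, library 2 for 2 and library 1 for 0. Summed over the list, the level was 4239, 4639.97 and 7544 scaled TPM in the biliary libraries, against 1360.3, 1214 and 1648 in the hepatocyte libraries. Without biliary library 3, 17 members were higher and 0 lower.

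**Figure D4:**
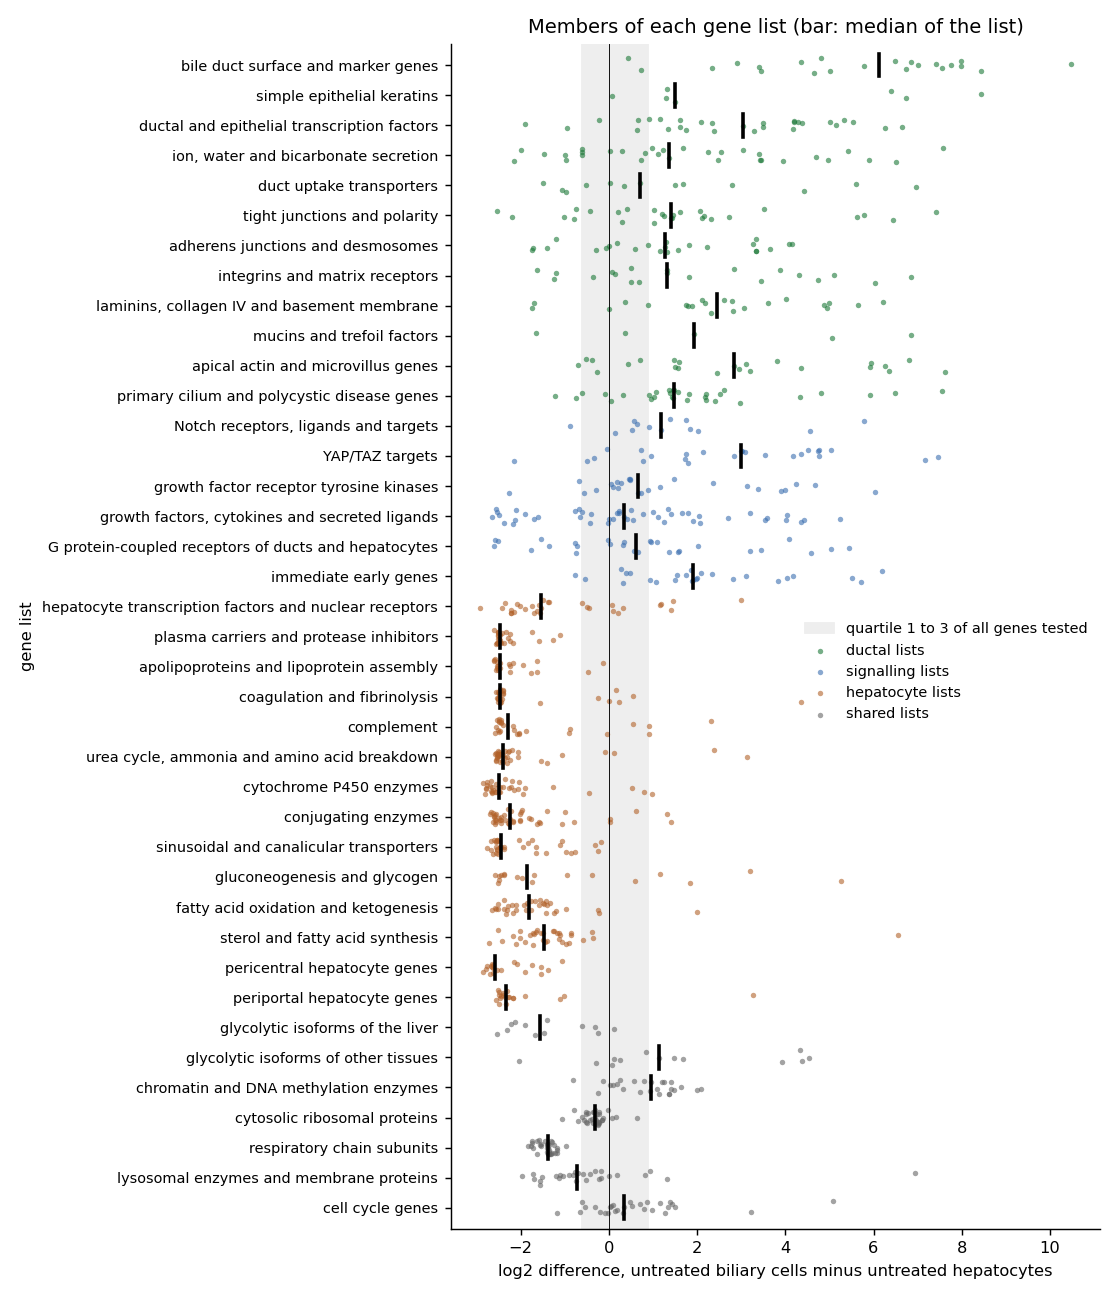
Log2 difference, untreated biliary cells minus untreated hepatocytes (horizontal axis), of each tested member of 39 gene lists (points), with the median of the list (bar) and quartiles 1 to 3 of all genes tested (grey band, -0.61 to 0.89). Ductal and signalling lists spread widely to the right, to 10.47 for Spp1, while the plasma protein, P450 and transporter lists have medians of -2.46, -2.50 and -2.45.

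Across 14 lists of hepatocyte functions with 387 distinct tested genes, 312 were lower in biliary cells and 18 higher, with a median of -2.23. In TPM as deposited 168 were lower and 35 higher, and under quantile normalization 221 and 14. Over all genes 15.6% were lower and 21.6% higher, and in TPM as deposited 3.38% and 52.9%. The counts of each hepatocyte list below stand beside these same shares. Besides Alb, the lower members Hnf4a, Apoe, C3, Cat and Pklr were not called in TPM as deposited. In the plot of list members, those called higher reach 6.56, for Scd2. Plasma carriers and protease inhibitors were lower for 25 of 27 members (median -2.46), or 7 under quantile normalization, and for all 27 with the library number as a block. Trf, the gene for the iron carrier transferrin, averaged 4807 ± 1013 in biliary cells and 23885 ± 2042 in hepatocytes (log2 difference -2.33, SE 0.47). Serpina1c, an alpha-1 antitrypsin gene of a multi-copy family and therefore uncertain, averaged 3265 ± 632 in biliary cells and 17989.5 ± 1629 in hepatocytes (log2 difference -2.48, SE 0.32). Hrg, the histidine-rich glycoprotein gene, averaged 195 ± 37.3 in biliary cells and 1143 ± 66.8 in hepatocytes (log2 difference -2.56, SE 0.58).

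Among lipoprotein genes, Apoa2, a protein of high-density lipoprotein, had 8275, 5662 and 5694 scaled TPM in the biliary libraries, against 42858, 36205 and 37666 in the hepatocyte libraries (log2 difference -2.59, SE 0.37), and Apoc3, an inhibitor of triglyceride clearance, averaged 1813 ± 273 in biliary cells and 10522 ± 449.6 in hepatocytes (log2 difference -2.55, SE 0.39). Apoe, which many cell types make, averaged 12348 ± 1402 in biliary cells and 38081 ± 2194 in hepatocytes (log2 difference -1.63, SE 0.37), a smaller difference than that of Apoa2, and one that was no longer called with no filter or in TPM as deposited and turned positive under quantile normalization (0.33). Of 21 apolipoprotein and lipoprotein assembly genes, 19 were lower and 0 higher, or 11 and 1 in TPM as deposited.

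Coagulation genes were lower for 21 of 27 members, with F3 the 1 higher member. Fgb, a fibrinogen chain gene, averaged 1147 ± 208 in biliary cells and 6522 ± 130.4 in hepatocytes (log2 difference -2.52, SE 0.38), F2, the prothrombin gene, 398 ± 79.6 in biliary cells and 2254 ± 84.3 in hepatocytes (log2 difference -2.51, SE 0.32), and F9 39.8 ± 6.62 in biliary cells and 229.8 ± 18.9 in hepatocytes (log2 difference -2.51, SE 0.28). Complement genes were lower for 19 of 26, or 12 in TPM as deposited, with Clu the 1 higher member. C9, of the membrane attack complex, averaged 269.7 ± 53.3 in biliary cells and 1574 ± 104 in hepatocytes (log2 difference -2.56, SE 0.26), and C3, the central component, 1431 ± 223 in biliary cells and 5251 ± 529.7 in hepatocytes (log2 difference -1.88, SE 0.25). Clu, the gene for the chaperone and complement inhibitor clusterin (chr14:65968483-65981547, plus strand), had 10438, 10241 and 10290.4 scaled TPM in the biliary libraries, against 2256, 2087 and 1913 in the hepatocyte libraries (log2 difference 2.31, SE 0.37, adjusted p = 0.000124). With Spp1, Clu was thus among the most abundant biliary transcripts, but unlike Spp1 it was also abundant in hepatocytes.

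Urea cycle and amino acid genes were lower for 32 of 37 members and higher for 2. Cps1, the first enzyme of the cycle, had 631, 505 and 559.7 scaled TPM in the biliary libraries, against 2950.2, 3384 and 3669.7 in the hepatocyte libraries (log2 difference -2.56, SE 0.48, adjusted p = 0.000403), and Ass1, which joins citrulline to aspartate, averaged 480.3 ± 102 in biliary cells and 2739 ± 731 in hepatocytes (log2 difference -2.50, SE 0.48). Tdo2, which starts tryptophan breakdown, averaged 591 ± 108 in biliary cells and 3432 ± 294 in hepatocytes (log2 difference -2.55, SE 0.40), and Hgd, an enzyme of tyrosine breakdown, 177 ± 34.96 in biliary cells and 1055 ± 93.8 in hepatocytes (log2 difference -2.59, SE 0.25). Among the higher members was Arg2, the mitochondrial arginase, at 5.25 ± 2.98 in biliary cells and 0, 0.0695 and 0.21001 in the 3 hepatocyte libraries (log2 difference 2.38, SE 0.47).

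Drug-metabolising P450 enzymes were lower in biliary cells. Of 35 tested P450 genes, 29 were lower and 0 higher (median -2.50). In TPM as deposited 15 were lower and 3 higher, beside 3.38% and 52.9% of all genes. Cyp2e1, an ethanol-metabolising enzyme of pericentral hepatocytes, had 1091, 967 and 804 scaled TPM in the biliary libraries, against 5976, 7171 and 6039 in the hepatocyte libraries (log2 difference -2.75, SE 0.38, adjusted p = 3.04e-05). Cyp27a1, of bile acid synthesis, averaged 111 ± 16.7 in biliary cells and 719.6 ± 36.6 in hepatocytes (log2 difference -2.70, SE 0.43). The Cyp2c genes, whose sequences are near-identical, are uncertain one by one, and Cyp2c29 averaged 497 ± 41.99 in biliary cells and 3487 ± 337 in hepatocytes (log2 difference -2.81, SE 0.33). The 20 P450 genes of at least 100 TPM in hepatocytes had a median biliary level of 38.7% of the hepatocyte level as deposited, beside 44.2% for all hepatocyte lists. Conjugating enzymes were lower for 37 of 45 and higher for 2, or 21 and 4 in TPM as deposited, beside the same shares. Mgst1, a membrane-bound glutathione transferase gene, averaged 1468 ± 138 in biliary cells and 7191 ± 301 in hepatocytes (log2 difference -2.29, SE 0.24), while Gstm5 was higher at 72.2 ± 3.73 in biliary cells and 26.8 ± 3.51 in hepatocytes (log2 difference 1.40, SE 0.21), within a family of similar sequences.

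Transporters of the sinusoidal and canalicular membranes were lower for 30 of 36 members and higher for 0, or 20 and 1 in TPM as deposited. Slco1b2, an uptake carrier for bile acids and drugs, averaged 142 ± 20.3 in biliary cells and 959.6 ± 91.98 in hepatocytes (log2 difference -2.76, SE 0.25), and Aqp9, a glycerol channel gene, 67.2 ± 8.07 in biliary cells and 431 ± 43.5 in hepatocytes (log2 difference -2.67, SE 0.25). As deposited, the biliary level was 35.5% of the hepatocyte level for Slco1b2, against 40.5% for Apoa2 and 54.1% for Alb.

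The proportion was lower for pericentral than for periportal hepatocyte genes. Pericentral genes, expressed by hepatocytes around the central vein, had a median biliary level of 38.6% of the hepatocyte level as deposited (14 genes of at least 100 TPM), and periportal genes, expressed beside the bile ducts, 46.2% (17 genes). All but 1 of the 20 pericentral genes were called lower, with a median of -2.58, or 11 without scaling. The exception was Glul, the glutamine synthetase gene of the last pericentral cells, at 135 ± 16.4 in biliary cells and 281 ± 8.04 in hepatocytes, which was called with the library number as a block within treatment (-1.06) and whose sign turned in TPM as deposited (0.21). Of the 20 periportal genes, 19 were lower and 1, Cdh1, higher, with a median of -2.34, or 12 lower without scaling and 12 under quantile normalization. The pericentral list shares genes with the P450 list, and the difference between the zones was not tested.

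Hepatocyte transcription factors were lower for 19 of 31 tested members and higher for 5. In TPM as deposited 3 were lower and 9 higher, beside 3.38% and 52.9% of all genes. Besides Nr1i3 and Hnf4a, the lower ones included Creb3l3, a regulator of fasting genes, at 53.6 ± 12.9 in biliary cells and 287 ± 36.4 in hepatocytes (log2 difference -2.42, SE 0.33) and Mlxipl, the glucose-responsive factor ChREBP, at 30.7 ± 0.548 in biliary cells and 164 ± 36.5 in hepatocytes (log2 difference -2.36, SE 0.17). The higher ones included both forkhead factors of the early endoderm. Foxa1 averaged 27.5 ± 2.21 in biliary cells and 9.82 ± 1.59 in hepatocytes (log2 difference 1.41, SE 0.21), Foxa2 35.04 ± 3.79 in biliary cells and 14.9 ± 2.16 in hepatocytes (log2 difference 1.19, SE 0.14), Gata6 46.7 ± 2.28 in biliary cells and 4.97 ± 0.435 in hepatocytes (log2 difference 3.001, SE 0.14) and Prox1, a homeobox gene of the liver bud, 107 ± 19.4 in biliary cells and 39.01 ± 11.1 in hepatocytes (log2 difference 1.45, SE 0.30). Nr5a2, the receptor LRH-1, was not called at 45.6 ± 5.03 in biliary cells and 42.7 ± 4.56 in hepatocytes.

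Lipid and glucose metabolism were lower too, less evenly. Fatty acid oxidation and ketogenesis genes were lower for 29 of 34 members, but for 8 in TPM as deposited and 13 under quantile normalization. Slc27a2, a fatty acid transporter gene, averaged 170.3 ± 56.2 in biliary cells and 1049.9 ± 187 in hepatocytes (log2 difference -2.65, SE 0.35) and Cat, the catalase gene, 771 ± 99.96 in biliary cells and 3297 ± 178 in hepatocytes (log2 difference -2.10, SE 0.22). Fabp1, the liver fatty acid-binding protein gene, had 4568, 3287 and 3246 scaled TPM in the biliary libraries, against 22675, 20671 and 21199 in the hepatocyte libraries, with no overlap. It was not called (log2 difference -2.56, SE 1.15, adjusted p = 0.0666), but was called lower with the library number as a block within treatment. The SE draws on the spread within all 5 groups of the series, the DDC libraries included. Sterol and fatty acid synthesis genes were lower for 26 of 34, but for 2 in TPM as deposited and 9 under quantile normalization. In TPM as deposited 1 of them was higher, beside 52.9% of all genes higher and 3.38% lower. Gluconeogenesis and glycogen genes were lower for 11 and higher for 4 of 18 (7 lower without scaling), with G6pc, the last enzyme of glucose release, at 211 ± 37.2 in biliary cells and 1251 ± 191 in hepatocytes (log2 difference -2.57, SE 0.40).

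Several steps of metabolism showed a hepatocyte enzyme lower and its relative of other tissues higher. Of 13 tested glycolytic isoforms of other tissues, 7 were higher and 1 lower, and of 12 liver isoforms 0 were higher and 8 lower. In TPM as deposited 2 liver isoforms were higher and 2 lower, beside 52.9% and 3.38% of all genes. Under quantile normalization 0 liver isoforms were higher and 3 lower. Among the forms of other tissues, Hk1, a hexokinase gene, averaged 15.7 ± 1.31 in biliary cells and 0.0912 ± 0.0125 in hepatocytes (log2 difference 3.93, SE 0.14), and Aldoa, an aldolase gene, 294 ± 15.2 in biliary cells and 105 ± 5.82 in hepatocytes (log2 difference 1.47, SE 0.14). The pairs below were put together, and Pygl chosen, after the values were seen. For pyruvate kinase, Pkm had 42.8, 41.9 and 46.4 scaled TPM in the biliary libraries, against 0.373, 1.49 and 1.09 in the hepatocyte libraries (log2 difference 4.54, SE 0.23), and Pklr, the liver form, had 43.98, 44.8 and 59.9 scaled TPM in biliary libraries and 156, 231 and 288 in hepatocyte libraries (log2 difference -2.13, SE 0.25). For glycogen breakdown, Pygb averaged 75.7 ± 3.78 in biliary cells and 1.04 ± 0.485 in hepatocytes (log2 difference 5.25, SE 0.43) and Pygl, the liver form, 115 ± 13.4 in biliary cells and 600.2 ± 62.8 in hepatocytes (log2 difference -2.37, SE 0.25). For fatty acid desaturation, Scd2 had 163, 129 and 176 scaled TPM in biliary libraries and 0.435, 0.522 and 1.07 in hepatocyte libraries (log2 difference 6.56, SE 0.23) and Scd1 had 405, 518 and 481 scaled TPM in biliary libraries and 1824, 3359 and 2588 in hepatocyte libraries (log2 difference -2.43, SE 0.50). The same held for the arginases Arg2 and Arg1, the glycogen synthases Gys1 and Gys2 and the carboxykinases Pck2 and Pck1. Not every pair divided this way. Ldha, a lactate dehydrogenase gene listed with other tissues, was lower at 234 ± 24.1 in biliary cells and 965 ± 22.3 in hepatocytes (log2 difference -2.04, SE 0.18), and Ldhb was higher at 49.9 ± 5.59 in biliary cells and 1.45 ± 0.389 in hepatocytes (log2 difference 4.39, SE 0.19).

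**Figure D5:**
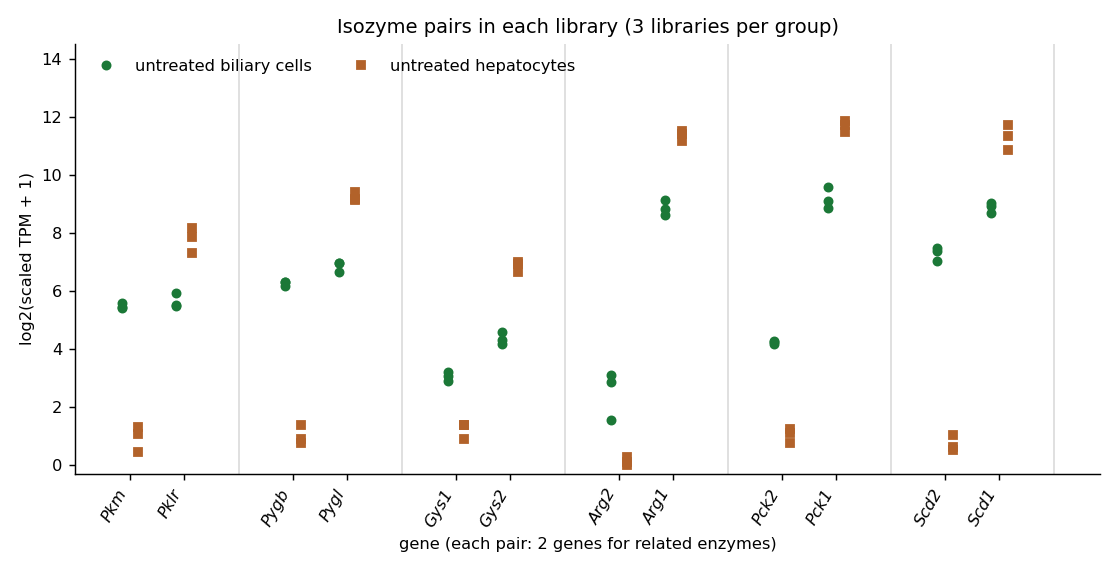
Level of 6 pairs of related enzymes, as log2(scaled TPM + 1), in each of 3 libraries of untreated biliary cells (circles) and 3 of untreated hepatocytes (squares). In each pair the first gene is higher in every biliary library and the second in every hepatocyte library, and the hepatocyte form stays above 4 in every biliary library.

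Genes that every cell uses depended on the scaling. Cytosolic ribosomal protein genes had a median of -0.31, with 0 of 35 higher and 1 lower, whereas in TPM as deposited 15 were higher with a median of 0.96, and under quantile normalization 8 with a median of 0.90. Over all genes 52.9% were higher in TPM as deposited, with a median of 1.11, so that the ribosomal genes lay below the median gene there too. Respiratory chain subunit genes were lower for 34 of 35 with a median of -1.38, for example Cox5a at 233 ± 25.4 in biliary cells and 836 ± 61.8 in hepatocytes (log2 difference -1.84, SE 0.21). In TPM as deposited 0 of these respiratory genes were called either way, beside 52.9% of all genes higher. Their median was then -0.12, beside 1.11 over all genes, so they too lay below the median gene. Under quantile normalization 1 was called lower. Lysosomal genes were lower for 10 and higher for 2 of 28. In TPM as deposited 0 were lower and 8 higher, a smaller share than the 52.9% of all genes higher there. Of the lysosomal genes, Cd63, a tetraspanin gene of late endosomes, stood apart under all 3 scalings. It had 275, 288 and 322 scaled TPM in the biliary libraries, against 1.41, 0.999 and 1.89 in the hepatocyte libraries (log2 difference 6.94, SE 0.30, adjusted p = 9.39e-10).

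Chromatin and DNA methylation enzymes were higher for 12 of 25 and lower for 0, or 5 and 1 under quantile normalization and 23 and 0 in TPM as deposited. Over all genes 52.9% were higher in TPM as deposited and 3.38% lower. Tet1, which oxidises methylated cytosine, averaged 2.16 ± 0.1605 in biliary cells and 0.01701 ± 0.0123 in hepatocytes (log2 difference 1.64, SE 0.11), Uhrf1, which recruits the maintenance methyltransferase, 5.87 ± 1.27 in biliary cells and 0.845 ± 0.936 in hepatocytes (log2 difference 1.99, SE 0.48), and Cbx7, a Polycomb subunit gene, 19.5 ± 2.48 in biliary cells and 3.86 ± 0.697 in hepatocytes (log2 difference 2.08, SE 0.22). Cell cycle genes were mostly not called, with 8 of 29 higher and 1 lower, beside the 21.6% and 15.6% over all genes. Without scaling 14 were higher, beside 52.9% of all genes. Of the D cyclins, which act in the first gap phase, Ccnd1 and Ccnd2 were higher and Ccnd3 was not called at 41.2 ± 2.14 in biliary cells and 32.2 ± 4.76 in hepatocytes. Ccnd1 had 173, 181 and 198 scaled TPM in the biliary libraries, against 14.2, 15.4 and 29.6 in the hepatocyte libraries (log2 difference 3.23, SE 0.35, adjusted p = 3.59e-06), and Ccnd2 averaged 37.4 ± 4.59 in biliary cells and 0.132 ± 0.0448 in hepatocytes (log2 difference 5.08, SE 0.37).

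Promoter sequence was examined for 10618 of the 13905 genes, those with an entry from RefSeq on GRCm38.p6 (250 bases before to 50 after the start), of which 2271 were higher and 1693 lower. Promoters of lower genes were poorer in CpG. The median ratio of observed to expected CpG was 0.691 for higher, 0.645 for lower and 0.753 for all genes with a promoter, and 21.9%, 30.3% and 17.6% had a ratio under 0.4. The TATA box, searched as TATAAA on the gene's strand between 40 and 20 bases before the start, was in 1.41% of higher, 2.89% of lower and 1.43% of all promoters. GTTAAT, the half-site bound by the liver factor HNF1, on either strand, was in 3.7%, 7.62% and 4.5%. GGAATG, the core bound by TEAD factors, on either strand, was in 14.4%, 13.4% and 12.3%. A promoter was counted once for a motif however many matches it held, and matches of different motifs could overlap. A match describes letters only, and none of the shares was tested.

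The promoters of Ankrd1 and Alb are shown because these motifs fall in the windows of a gene listed at 0 in hepatocytes and of the most abundant transcript of the hepatocyte libraries. Each runs 5′ to 3′ on the gene's own strand. The starts are those of RefSeq and differ from the starts of the gene positions given above. For Ankrd1 the whole window lies inside that gene position. In Ankrd1, at chr19:36119795-36120094 on the minus strand, the capitals mark GGAATG, which begins 210 and 123 bases before the start. In Alb, at chr5:90460620-90460919 on the plus strand, the capitals mark GTTAAT, which begins 32 bases before the start.
Ankrd1: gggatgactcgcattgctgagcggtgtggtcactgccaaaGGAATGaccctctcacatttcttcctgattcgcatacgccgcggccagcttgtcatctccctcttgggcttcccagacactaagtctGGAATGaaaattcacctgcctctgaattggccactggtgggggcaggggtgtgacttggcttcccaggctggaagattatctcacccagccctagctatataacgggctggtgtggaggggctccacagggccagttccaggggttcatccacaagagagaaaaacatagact
Alb: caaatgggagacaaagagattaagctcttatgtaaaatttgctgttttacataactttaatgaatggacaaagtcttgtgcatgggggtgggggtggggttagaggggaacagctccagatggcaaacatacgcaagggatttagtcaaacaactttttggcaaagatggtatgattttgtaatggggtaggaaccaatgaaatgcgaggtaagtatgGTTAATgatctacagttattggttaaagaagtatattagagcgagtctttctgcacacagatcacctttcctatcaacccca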

How the data were processed

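Total RNA of sorted mouse liver cells was sequenced. The deposited values are gene TPM, relative abundances adjusted for transcript length, that the authors computed with Salmon for the mouse build mm10, per the submitters' processing notes. Its version was not given in the sources used. Sequencing depth is unknown, because TPM hold no read numbers, and no interval for counting error is given. The values are not counts, so no test made for counts was used.

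Genes at 1 TPM or more in at least 3 of the 15 libraries were kept. Each library was divided by its median ratio to the geometric mean of all 15, over 11924 genes above 0 in every one of them. Differences of log2(scaled TPM + 1) were tested by limma 3.58.1 (R 4.3.3), which modelled the 5 groups together with a trend of variance on level, leaving 10 residual degrees of freedom. A gene was called if its Benjamini-Hochberg adjusted p over all 13905 genes was under 0.05 and its difference reached 1 in size. The hepatocyte ratios used TPM as deposited. Tables were made with pandas 2.3.3 in Python 3.11.15 and figures with matplotlib 3.10.9.

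On simulated data the fit recovered 98 of 100 genes with a log2 change of 2 and 99 of 100 with a change of 3. It made 8 false calls among 13905 genes. Only 100 genes were simulated with a change of each size, whereas 37.3% of all genes tested were called in the data. The simulation therefore could not test the scaling between libraries where so many genes differ. The members, the 46 gene lists (1106 genes, of which 1005 were tested) and the tests were chosen with earlier results of these data known. Genes were named by a rule: in each direction the 15 called genes with the largest difference, a level of 10 scaled TPM or more where higher and no overlap, then per list up to 6 called members by size, 3 by level and 4 against the list's direction, up to 3 abundant members that were not called, 8 marker genes, and up to 10 genes of at least 100 TPM in hepatocytes with the lowest ratio. Not every gene so named is described, and some are not reported here. Gene positions are from GENCODE M21 on GRCm38, the assembly of mm10, for 13691 of the 13905 genes. Promoter sequences are from RefSeq on GRCm38.p6.

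Pairing by the numbers in the titles was checked. Deviations from the group means correlated at 0.15, 0.17 and 0.236 across genes between biliary and hepatocyte libraries of the same number, and at -0.165 to 0.00813 between other numbers. All 3 were above 0.1, so the numbers were taken as pairing the libraries, although the labels do not say that a number marks 1 animal. The deviations of a group sum to 0 for each gene, so the values for other numbers are not independent of these 3. The main fit held no block for the number, which was tried as an alternative. The alternatives tried were no scaling (TPM as deposited) or quantile normalization, a pseudocount of 0.1 or 5, no minimum level or one of 5 TPM, a fit of the 6 untreated libraries alone, sample weights, robust moderation, a fit without the trend, the number as a block, calls by adjusted p alone, and each library left out in turn.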

Additional observations from a re-analysis of the deposited data

How the results depend on the processing

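The scaling between libraries and the call rule moved the counts of genes most. In TPM as deposited 7820 genes were called, 7350 higher and 470 lower in biliary cells. Quantile normalization gave 1954 higher genes. A pseudocount of 5 gave 3387 called genes, 1644 of them higher, and the adjusted p alone gave 9300, with 5133 higher and 4167 lower. Leaving out each library in turn gave 5053 to 5269 called genes, 2942 to 3070 higher and 2081 to 2204 lower. The numbers in the library titles were taken as pairing the libraries, which the labels do not state. With the replicate number as a block within treatment 5260 genes were called, and over all libraries 5221, against 5185 in the main fit without it. Among 189 named genes the block within treatment changed the calls of Fabp1, Glul, Serpina6 and Serpina7 and no other, all 4 then being called lower. The block over all libraries changed 2 calls. The hepatocyte transcripts in the biliary libraries had a median of 44.2% of the hepatocyte level, which was 57.0% over all genes called lower, 18.3% in scaled TPM and 41.2% to 46.7% without each biliary library in turn. Of 189 named genes, 19 were no longer called in TPM as deposited and 19 under quantile normalization. The sign turned for Glul (0.21), Slc10a2 (0.21) and Mpeg1 (0.24) in TPM as deposited, and for Apoe (0.33) under quantile normalization, where Alb was at 0.00. Notch1 passed the threshold without biliary library 2 (1.04) or hepatocyte library 2. Of the 46 lists, the median changed sign for 2 in TPM as deposited and for 8 under quantile normalization. The cause of these changes was not tested. Since TPM keep no read totals, the precision of low values is unknown.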
